A study of Mus musculus with 2 samples.

Results

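The 8 genes described here, for secreted growth factors and cytokines, were followed through the myeloid cells of mouse retinas. They were Igf1, Hbegf, Gdf15, Pdgfa, Pdgfb, Bmp2, Osm and Vegfa, 8 of the 27998 gene identifiers in the files, and each symbol belonged to 1 identifier. The cells came from male CB6F1 mice of 8 months that carried the reporter Cx3cr1-YFP, in which the fractalkine receptor gene drives a fluorescent protein in microglia and in other myeloid cells. The light-damaged group (LD) had been dark-adapted overnight, had its pupils dilated, was placed under LED light of 10 klux for 4 h and then spent 5 days in normal light. The control group (ctrl) had no light damage, and whether these mice were dark-adapted or dilated is not given in the sources used here. In each group the retinas of 5 to 8 mice were pooled and digested with collagenase and DNase, live YFP-positive cells were sorted, and a single 10x Genomics library that reads transcript 3' ends was prepared.

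Growth factors of this kind are released by one cell and bind receptors on its neighbours. Insulin-like growth factor 1, heparin-binding EGF-like growth factor, the platelet-derived growth factor chains and vascular endothelial growth factor A act through receptor tyrosine kinases, bone morphogenetic protein 2 through serine/threonine kinase receptors and SMAD proteins, and oncostatin M through gp130. In the retina, microglia lie in the plexiform layers and contact neurons, Müller glia and vessels, while perivascular macrophages sit along the vessels, and both are regarded as sources of such signals after injury.

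The cells were sorted into 3 classes by sums of marker UMIs (unique molecular identifiers, each standing for 1 captured transcript) per 10000 UMIs of the cell. Microglia had at least 20 of P2ry12, Tmem119, Siglech, Gpr34 and P2ry13 together, which gave 4653 of 6799 kept LD cells and 3497 of 3948 kept control cells. Perivascular macrophages had at least 10 of Mrc1, F13a1, Cd163, Lyve1 and Cbr2 together, 85 LD cells and 53 control cells. Other macrophages were under 10 of both sums, 1202 LD cells and 245 control cells. A further 857 LD cells and 147 control cells lay between the microglia and other-macrophage limits, and 2 LD and 6 control cells passed both rules; none of these entered a class. Levels are CPM, the UMIs of a gene scaled by all UMIs of a class in 1 library. Every interval is an exact 95% interval, Poisson for levels and ratios and Clopper-Pearson for shares of cells. The intervals cover counting error only. With 1 pool and 1 library per group there was no test between groups, and group and library cannot be told apart.

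The LD library was deeper, with a median of 7351 UMIs per barcode over 6821 barcodes, against 4846 over 4003 barcodes in the control library. Cx3cr1, a microglia marker that the rule did not use, was at 937 CPM in LD and 949 CPM in control microglia. In perivascular macrophages 8 perivascular markers outside the rule summed to 2721 CPM in LD and 3372 CPM in control cells. Pf4 was at 674 CPM in LD and 1933 CPM in control cells, Maf at 313 and 434 CPM, and Cd209f at 0 and 5.39 CPM. Ms4a7 was at 823 CPM in LD and 523 CPM in control cells, Folr2 at 463 and 240 CPM, Clec4n at 349 and 183 CPM, Fcna at 79.3 and 48.5 CPM, and Clec10a at 18.6 and 5.39 CPM. The other macrophages were a mixed remainder and differed in makeup between the libraries. Their 8 monocyte and macrophage markers summed to 1161 CPM in LD cells and 130 CPM in control cells, and their 6 rod photoreceptor markers to 318 CPM in LD cells and 14906 CPM in control cells. At least 50 UMIs per 10000 of 29 retinal and vascular cell markers were found in 26 of 1202 LD cells (2.16%) and 80 of 245 control cells (32.7%) of that class. The part of these retinal transcripts in the results was not tested, so member values without those cells are given with the results for this class.

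RefSeq promoter windows of assembly GRCm38.p6, each of 300 bases from 250 before a start site to 50 from it onwards, were matched for 4 members, with 7 windows in all. They were searched on both strands for TGANTCA (AP-1), ACGTG (hypoxia core), TGACGTCA (CRE), TTCNNNGAA (STAT) and TGATGNAAT (C/EBP-ATF), and for an NF-kB motif. The windows of Igf1 and Gdf15 with a match are printed because the levels of these members turned on particular cell states, described further on. Capitals mark the matched letters, on the strand of the gene.
Igf1 (chr10:87860861-87861160, plus strand): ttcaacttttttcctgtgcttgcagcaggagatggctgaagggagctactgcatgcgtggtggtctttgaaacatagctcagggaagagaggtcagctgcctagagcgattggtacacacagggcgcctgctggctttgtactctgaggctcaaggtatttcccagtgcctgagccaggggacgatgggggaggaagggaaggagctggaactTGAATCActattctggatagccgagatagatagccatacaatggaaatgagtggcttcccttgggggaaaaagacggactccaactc
Gdf15 (chr8:70632046-70632345, minus strand): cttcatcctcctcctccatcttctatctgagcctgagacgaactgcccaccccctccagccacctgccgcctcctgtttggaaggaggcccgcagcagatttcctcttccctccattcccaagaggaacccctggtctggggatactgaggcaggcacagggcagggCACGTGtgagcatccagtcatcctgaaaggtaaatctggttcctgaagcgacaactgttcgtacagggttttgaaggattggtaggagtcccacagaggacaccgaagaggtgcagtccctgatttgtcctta
The Igf1 window held 1 AP-1 match, TGAATCA, at position -37 from the start site, and 7.81% of all 32851 windows held this motif. Of the 2 Gdf15 windows, the one at start site 70632456, where this minus-strand gene begins, held no match to any motif. The printed Gdf15 window held CACGTG, which is the hypoxia core on both strands with the matches overlapping, and 19.6% of all windows held that core. A Vegfa window held 1 such core, CACGT, at position -211. The other motifs had no match in the 7 windows.

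In mm10, Igf1 lies on chromosome 10 from 87858265 to 87937042 (plus strand), Hbegf on chromosome 18 from 36504927 to 36515805 (minus strand) and Gdf15 on chromosome 8 from 70629393 to 70632456 (minus strand). Pdgfa lies on chromosome 5 from 138976014 to 138997370 (minus strand), Pdgfb on chromosome 15 from 79995874 to 80014977 (minus strand) and Bmp2 on chromosome 2 from 133552159 to 133562885 (plus strand). Osm lies on chromosome 11 from 4236420 to 4241026 (plus strand) and Vegfa on chromosome 17 from 46016993 to 46032369 (minus strand). Each of the 8 is a protein-coding gene. Genes on the opposite strand overlap Igf1 (Igf1os), Pdgfa (6330403L08Rik) and Pdgfb (Gm41361), Mir7213 lies within Pdgfb on its own strand, and the strand setting of the counting is not given in the sources used here.

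In microglia, Hbegf was the member past 1.5-fold among those at 20 CPM or more in either library. Hbegf encodes a membrane-anchored ligand of the EGF receptor that proteases release, and that stimulates the division of Müller glia in zebrafish. It was at 65.5 CPM in LD microglia (2306 UMIs) and 16.7 CPM in control microglia (289 UMIs), 3.93-fold higher (3.47 to 4.45). Osm, a cytokine of the IL-6 family, was at 59.1 CPM in LD microglia (56.6 to 61.7) and 57.2 CPM in control microglia (53.7 to 60.9). Pdgfa and Pdgfb, the chains of platelet-derived growth factor, were within 1.5-fold. Pdgfa was at 52.3 CPM in LD and 43.7 CPM in control microglia, a ratio of 1.20 (1.10 to 1.30), and Pdgfb at 27.9 CPM in LD and 29.9 CPM in control microglia, a ratio of 0.930 (0.836 to 1.04).

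Thus 4 of the 8 members reached 20 CPM in either library in microglia, 1 of them over 1.5-fold higher in LD and 0 lower. Over all 5213 genes at that level, 5.45% were over 1.5-fold higher in LD and 6.77% lower. The median log2 ratio of the 4 members was 0.15, against -0.02 over all genes. The 4 members under 20 CPM were Igf1, Gdf15, Bmp2 and Vegfa. Gdf15, a stress-induced cytokine, was at 17.0 CPM in LD and 15.2 CPM in control microglia, a ratio of 1.12 (0.970 to 1.30). Vegfa, the main growth factor for endothelium, gave 13 UMIs in LD and 12 UMIs in control microglia, 0.369 and 0.692 CPM.

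**Figure D1:**
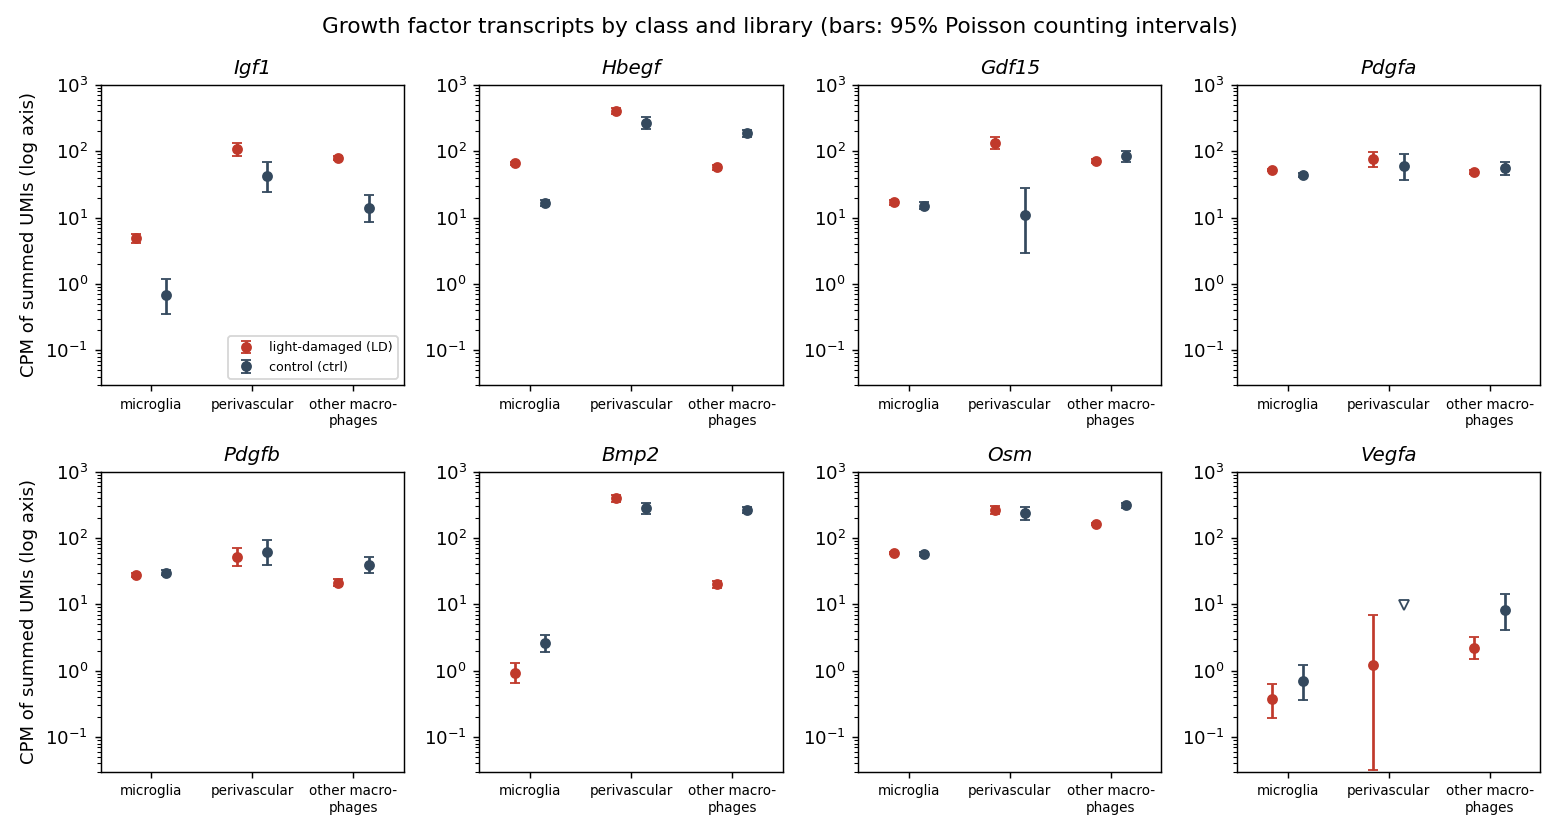
Level of each member in CPM (log axis) in the 3 classes, with LD to the left of control in each pair. Bars are 95% Poisson intervals and the open triangle is the upper limit for a count of 0. Hbegf stands at 65.5 CPM in LD and 16.7 CPM in control microglia, while the LD and control points of Pdgfa, Pdgfb and Osm lie close to each other in that class.

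The Hbegf difference was spread over many LD microglia. After every cell was thinned to 3000 UMIs, 16.7% of 4653 LD microglia (15.6% to 17.8%) and 3.11% of 2893 control microglia (2.51% to 3.81%) held an Hbegf UMI, and the unthinned shares were 33.2% and 4.03%. The thinning left out 604 shallower control microglia and 0 LD microglia. Thinned cells with exactly 1 Hbegf UMI were 14.3% of LD and 2.04% of control microglia, whereas those with 3 or more were 0.430% of LD and 0.449% of control microglia. The 1% of cells richest in Hbegf held 14.7% of its UMIs in LD microglia and 55.4% in control microglia. Without those cells the ratio was 7.54, an alternative chosen after seeing the data.

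Hbegf was also read in cells rich in retinal and vascular markers, on few UMIs. Whether these cells lack Hbegf transcripts of their own was not tested, so their level is not a known background. In the 80 control cells rich in retinal and vascular markers, Hbegf was at 12.4 CPM (3.38 to 31.8) from 4 UMIs, with a UMI in 3.75% of cells at a median of 2319 UMIs. In control microglia a UMI was seen in 4.03% of cells at a median of 4833 UMIs, and the 16.7 CPM of that class lie within the interval of those 80 cells. However, 13 control microglia with 5 or more Hbegf UMIs held 33.9% of the UMIs, with up to 26 in 1 cell. The 26 such LD cells had 39.3 CPM of Hbegf (14.4 to 85.4) and a UMI in 7.69% (0.946% to 25.1%) at a median of 4654 UMIs, against 33.2% (31.9% to 34.6%) of LD microglia at a median of 6874 UMIs. The CPM intervals of the LD groups overlap and the shares do not. Cells at the edge of the microglia rule also differed from the bulk of the class. With a marker sum from 20 up to 25, Hbegf was at 102 CPM in 434 LD cells and 114 CPM in 81 control cells, and with a sum from 15 up to 20, outside the class, at 86.5 CPM in 390 LD cells and 72.1 CPM in 64 control cells. With the class narrowed to a sum of at least 40, Hbegf was at 56.6 CPM in 2467 LD cells and 11.4 CPM in 3053 control cells, 4.97-fold higher (4.22 to 5.88).

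**Figure D2:**
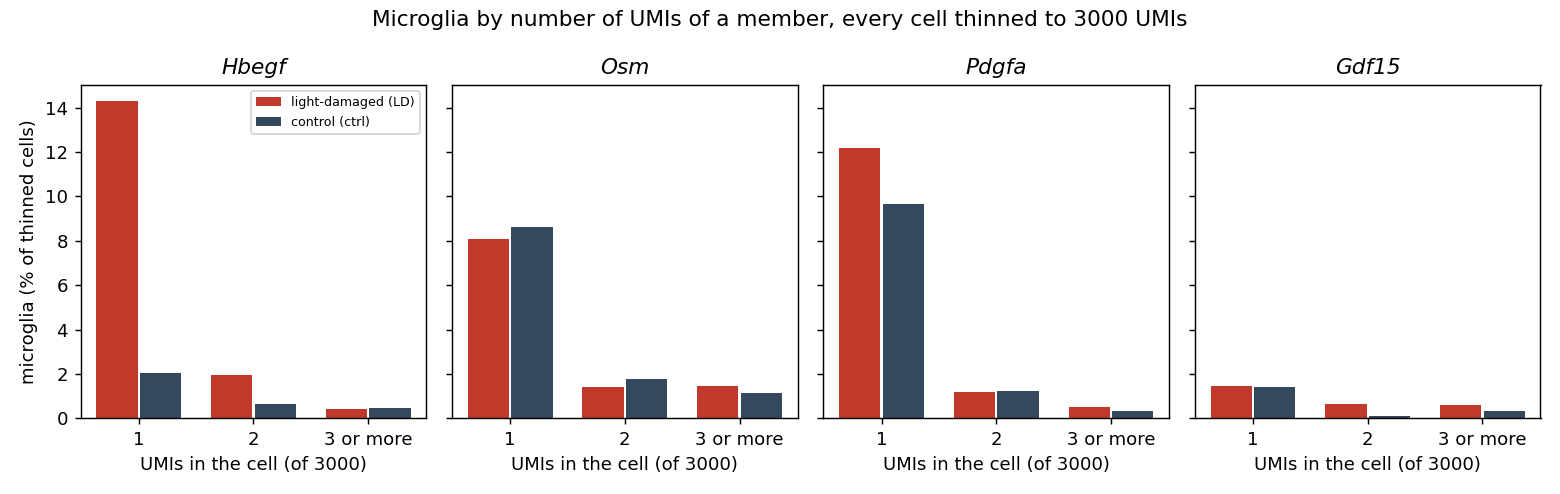
Share of microglia (%) with 1, 2 or 3 or more UMIs of a member, every cell thinned to 3000 UMIs, with LD bars left of control bars. The LD bar for 1 UMI of Hbegf reaches 14.3% and the control bar 2.04%, while the bars for Osm and Gdf15 with 1 UMI are of like height.

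Microglia were further divided into disjoint states by 11 gene lists that hold no member. A cell went to the list on which it ranked highest within its class and library if that rank was in the top 10%, and otherwise to no state. The states are therefore relative to each library, and their sizes are not compared. Hbegf was higher in LD, with an interval above 1, in 10 of the 12 groups of microglia. In the cells of no state it was at 51.9 CPM in 1877 LD cells (724 UMIs) and 3.36 CPM in 1602 control cells (28 UMIs), 15.4-fold higher (10.6 to 23.4). The chemokine and Tnf state, with Ccl3 and Ccl4 on its list, had 148 CPM in LD and 44.4 CPM in control cells. The 2 groups whose intervals reached 1 were the ATF4 and stress state, at 96.9 CPM in LD and 84.6 CPM in control cells, and the lipid state of Cst7, Lpl and Apoe, at 56.8 CPM in LD and 45.4 CPM in control cells.

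Osm, near equal over all microglia, was distributed differently over the states. In the chemokine and Tnf state it was at 349 CPM in 191 LD cells and 114 CPM in 180 control cells, 3.06-fold higher (2.45 to 3.85). In the cells of no state it was at 23.6 CPM in LD and 34.1 CPM in control microglia, a ratio of 0.691 (0.588 to 0.813). Its interval lay above 1 in 4 of the 12 groups and below 1 in 5. Gdf15 was held by few cells, with 64.0% of its UMIs in the richest 1% of LD microglia and 76.8% in the richest 1% of control microglia. In both libraries Gdf15 was highest in the chemokine and Tnf state, at 63.5 CPM in LD (87 UMIs) and 80.4 CPM in control cells (67 UMIs). The ratio there was 0.789 (0.567 to 1.10). In the ATF4 and stress state, with Ddit3 and Trib3 on its list, Gdf15 had 66 UMIs in 172 LD cells and 1 UMI in 136 control cells, 58.1 and 1.57 CPM, a ratio of 37.1 (6.43 to 1486). In the lipid state it was at 11.7 CPM in LD and 40.7 CPM in control cells, 3.47-fold lower.

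Pdgfa was highest in the chemokine and Tnf state in both libraries, at 109 CPM in LD and 76.8 CPM in control cells. Over the 12 groups it ranged from 39.7 to 109 CPM in LD microglia and from 33.8 to 76.8 CPM in control microglia, so that it was present in every state. Pdgfb ranged from 15.5 to 55.4 CPM in LD and from 25.5 to 43.1 CPM in control microglia. Igf1, a survival factor for neurons, had 172 UMIs in LD microglia and 12 UMIs in control microglia, 4.89 and 0.692 CPM, a ratio of 7.06 (3.94 to 13.9). In the LD library, 39.0% of these UMIs lay in the Mmp12 state, named after a macrophage elastase and holding 5.54% of the cells, at 28.0 CPM (21.7 to 35.6). A further 27.3% lay in the lipid state at 19.6 CPM, and the cells of no state had 1.43 CPM. On so few control UMIs the ratio followed the scale, and with a pseudocount of 10 CPM it was 1.39.

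**Figure D3:**
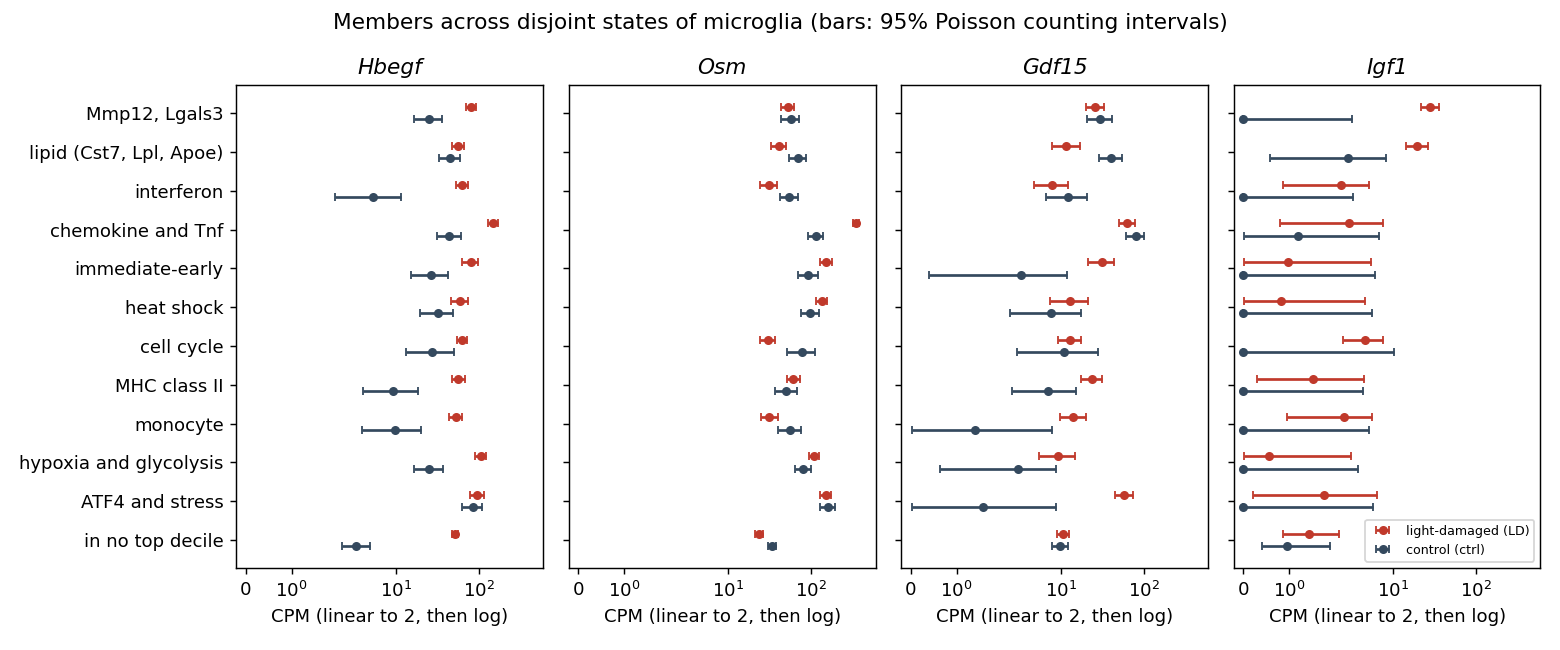
Hbegf, Osm, Gdf15 and Igf1 (CPM, linear to 2 and then log) in 11 disjoint states of microglia and in cells of no state, with the LD point above the control point in each row. Bars are 95% Poisson intervals. Hbegf points of LD lie to the right in the cells of no state, at 51.9 against 3.36 CPM, and Igf1 of LD peaks at 28.0 CPM in the Mmp12 state.

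Low levels in microglia have to be read against RNA released by other cells. Bmp2, an inducer of bone and of SMAD signalling, had 33 UMIs in LD and 45 UMIs in control microglia, 0.937 and 2.60 CPM. These were 0.237% of the perivascular level in LD and 0.917% in the control library. Pf4, a perivascular marker, was in microglia at 0.539% of its perivascular level in LD and 0.711% in the control library, Clec4n at 0.829% and 0.661%, Fcna at 0.860% and 0.476%, Ms4a7 at 2.43% and 2.03%, and Folr2 at 5.02% and 1.08%. Bmp2 was thus within or below the range of these 5 markers in microglia, and its LD value was 2.77-fold lower (1.73 to 4.48). The part of released RNA in Bmp2 was not tested. Igf1 in microglia was at 4.53% of its perivascular level in LD and 1.61% in the control library. In LD only Folr2 of the 5 markers was higher, and in the control library only Ms4a7. Set against other macrophages, LD microglia had 6.13% of the Igf1 level, 1.25% for Gpnmb, 2.62% for Ms4a7 and 2.75% for Acp5. The same value was 7.38% for Pf4, 11.8% for Lyz2 and 95.2% for Folr2. The part of released RNA in Igf1 was not tested. Hbegf was at 16.2% in LD and 6.25% in the control library, above all 5. These 5 leave out Maf, Clec10a and Cd209f of the perivascular markers named earlier. Maf was at 208 CPM in LD and 286 CPM in control microglia, against 313 and 434 CPM in perivascular macrophages. Hbegf was thus not above every perivascular marker by this measure. Clec10a was at 0.0568 CPM in LD and 0 CPM in control microglia, and Cd209f at 0 CPM in both. The part of released RNA in Hbegf was not tested.

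In perivascular macrophages, Igf1, Hbegf and Gdf15 were over 1.5-fold higher in LD and no member was as much lower. Of the 8 members 7 reached 20 CPM, and 3 of these were higher and 0 lower. Over all 4940 genes at that level, 21.0% were higher and 16.2% lower, on 85 LD cells and 53 control cells. The median log2 ratio was 0.48 over the 7 members and 0.07 over all genes. Igf1 was at 108 CPM in LD (87 UMIs) and 43.1 CPM in control cells (16 UMIs), 2.50-fold higher (1.46 to 4.57). Hbegf was at 405 CPM in LD and 267 CPM in control cells, 1.52-fold higher (1.21 to 1.92), and Bmp2 at 395 CPM in LD and 283 CPM in control cells, a ratio of 1.40 (1.12 to 1.76). In thinned cells a UMI of Hbegf was seen in 61.2% of LD cells and 31.9% of control cells, and the intervals of these shares did not overlap.

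Gdf15 and Hbegf in this class depended on few cells and on its limit. Gdf15 was at 134 CPM in LD (108 UMIs) and 10.8 CPM in control cells (4 UMIs), 12.4-fold higher (4.71 to 46.4), and 1 LD cell held 55 of the 108 UMIs. A marker minimum of 5 in place of 10 was set after seeing the data, while cells under 10 of both sums stayed in other macrophages. The cells it added were therefore only those with a microglia marker sum from 10 up to 20. The class then had 96 LD cells and 70 control cells. Gdf15 had 109 UMIs in LD and 82 UMIs in control cells, a ratio of 0.733 (0.545 to 0.988). Under a minimum of 20 the class had 23 LD cells and 17 control cells, and the Hbegf ratio was 0.815 (0.549 to 1.22) while that of Gdf15 was 45.9, on 1 control UMI. At a marker sum from 10 up to 12.5 Hbegf was at 386 CPM in 12 LD cells and 190 CPM in 11 control cells, and at a sum from 7.5 up to 10, outside the class, at 319 CPM in 21 LD cells and 419 CPM in 31 control cells. Pdgfa was at 76.8 CPM in LD and 59.3 CPM in control cells, Pdgfb at 52.0 and 62.0 CPM, and Osm at 266 and 235 CPM, each with a ratio interval that holds 1. Vegfa had 1 UMI in LD and 0 UMIs in control cells, where a count of 0 allows up to 8.09 CPM (3 counts).

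**Figure D4:**
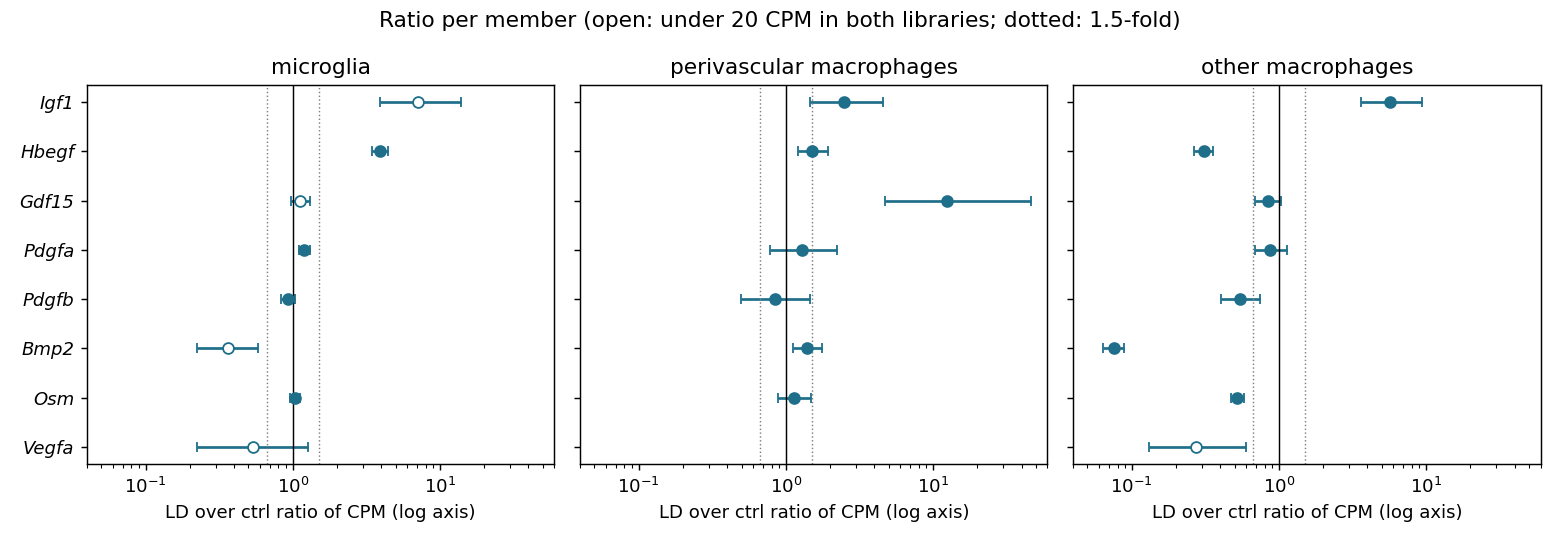
LD over control ratio of CPM (log axis) of each member in each class with 95% intervals. Open points are under 20 CPM in both libraries and dotted lines mark 1.5-fold. Igf1 lies right of 1 in all 3 classes, and Hbegf right of 1 in microglia at 3.93 and left of 1 in other macrophages at 0.308.

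In other macrophages, Igf1 was higher in LD, while Hbegf, Pdgfb, Bmp2 and Osm were lower. Igf1 was at 79.7 CPM in LD (1047 UMIs) and 14.1 CPM in control cells (19 UMIs), 5.67-fold higher (3.61 to 9.46). Bmp2 was at 19.9 CPM in LD (262 UMIs) and 264 CPM in control cells (357 UMIs), 13.2-fold lower (11.3 to 15.6). Hbegf was at 57.1 CPM in LD and 186 CPM in control cells, 3.25-fold lower (2.81 to 3.75), and Osm at 162 CPM in LD and 310 CPM in control cells, 1.91-fold lower (1.72 to 2.13). Pdgfb was at 21.3 CPM in LD and 39.2 CPM in control cells, 1.84-fold lower (1.34 to 2.47). Gdf15, at 70.7 CPM in LD and 84.3 CPM in control cells, and Pdgfa, at 48.6 and 55.5 CPM, had intervals that hold 1, but the Gdf15 ratio depended on the cells included. Vegfa had 29 UMIs in LD and 11 UMIs in control cells.

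Of the 7 members at 20 CPM or more here, 1 was over 1.5-fold higher in LD and 4 lower, where 22.9% of 5782 genes were higher and 28.1% lower. The median log2 ratio was -0.88 over the 7 members and 0.01 over all genes. Scaling by the median ratio of 1878 well measured genes in place of the class total moved every log2 ratio of this class by 0.17 downwards. The control class was an assembly of unlike cells. Besides the 80 cells rich in retinal markers it held 73 cells (29.8%) with at least 5 Pf4 UMIs per 10000, against 28 LD cells (2.33%). Among the 71 of those control cells that were not rich in retinal markers, Bmp2 was at 424 CPM, Hbegf at 347 CPM and Osm at 430 CPM. The 28 LD cells with Pf4 had 263 CPM of Bmp2, 267 CPM of Hbegf and 327 CPM of Osm. The intervals of the LD and control Pf4 cells overlapped for Hbegf and Osm and not for Bmp2.

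Without the Pf4 cells, a setting chosen after seeing the data, Bmp2 was at 15.2 CPM in 1174 LD cells and 171 CPM in 172 control cells, 11.2-fold lower (8.99 to 14.0). Hbegf was then at 53.0 CPM in LD and 90.9 CPM in control cells, 1.71-fold lower (1.33 to 2.17), and Osm 1.50-fold lower (1.29 to 1.74). Without the cells rich in retinal markers, also set after seeing the data, the class had 1176 LD and 165 control cells, and Bmp2 was 17.6-fold, Hbegf 4.18-fold and Osm 2.48-fold lower in LD. With both marker sums under 5, on 625 LD cells and 121 control cells, Bmp2 was 4.23-fold lower, Hbegf 1.46-fold lower (1.06 to 1.98) and Osm at a ratio of 0.951 (0.785 to 1.16). Pdgfb was 1.84-fold lower in the whole class, with ratios of 0.471 (0.344 to 0.658) without the cells rich in retinal markers, 0.709 (0.470 to 1.12) without the Pf4 cells and 0.748 (0.458 to 1.30) with both sums under 5, so that in the last 2 settings it was within 1.5-fold. Gdf15 was 1.55-fold lower (1.26 to 1.88) without the cells rich in retinal markers and 1.72-fold lower (1.39 to 2.11) without the Pf4 cells, whereas with both sums under 5 it was 1.44-fold higher (1.07 to 1.98). These ratios rest on few control cells. In the whole class 12 of 245 control cells held a Gdf15 UMI, and 5 cells held 88.6% of the control UMIs. Without the cell richest in Gdf15, a step chosen after seeing the data, the whole class was at 60.7 CPM in LD (56.5 to 65.0) and 61.7 CPM in control cells (49.2 to 76.5). Pdgfa had a ratio of 0.707 (0.553 to 0.917) without the cells rich in retinal markers, 0.877 (0.649 to 1.21) without the Pf4 cells and 1.22 (0.817 to 1.89) with both sums under 5. Igf1 was from 3.73-fold to 7.10-fold higher over the 17 alternatives run for this class, at 5.53-fold without the cells rich in retinal markers. Of the 11 Vegfa UMIs in control cells 9 were in the cells rich in retinal markers.

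Within LD other macrophages, members peaked in different states. Igf1 was at 312 CPM (286 to 340) in the 101 cells of the Mmp12 state, which held 48.7% of its UMIs, and at 58.7 CPM in cells of no state. Bmp2 had 0 UMIs in the Mmp12 state and was at 156 CPM in the chemokine and Tnf state and 114 CPM in the heat shock state. Gdf15 was at 432 CPM (384 to 484) in the 67 cells of the ATF4 and stress state, with 31.7% of its UMIs, although 1 LD cell of the class held 132 of its 928 UMIs. Hbegf was at 444 CPM (387 to 507) in the chemokine and Tnf state and at 8.31 CPM in the cell cycle state. Osm lay between 454 and 552 CPM in the chemokine, immediate-early, heat shock, hypoxia and ATF4 states and at 81.6 CPM in cells of no state. Depth differed between the states, with a median of 16415 UMIs per cell in the Mmp12 state and 10632 in cells of no state.

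**Figure D5:**
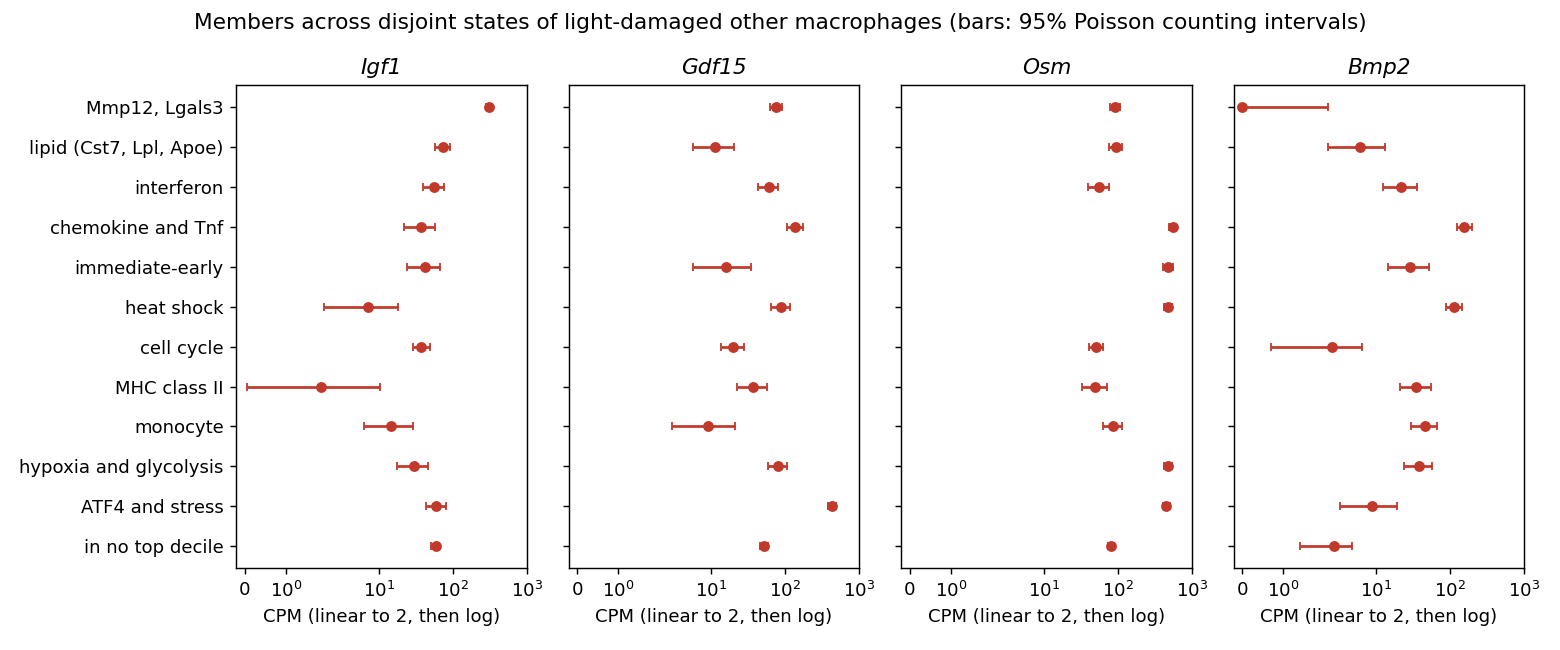
Igf1, Gdf15, Osm and Bmp2 (CPM, linear to 2 and then log) in the states of LD other macrophages, with 95% Poisson intervals. Igf1 peaks at 312 CPM in the Mmp12 state, Gdf15 at 432 CPM in the ATF4 and stress state, and Bmp2 at 156 CPM in the chemokine and Tnf state.

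The order of the classes differed by member. No count of leading classes over all genes was set beside those of the members, so they describe the members only. In the LD library perivascular macrophages had the highest level of 7 of the 8 members, all 7 with an interval clear of the next class, and other macrophages that of Vegfa. For Gdf15 this rested on 1 cell, and without the cell richest in it perivascular macrophages were at 66.4 CPM (49.8 to 86.9) and other macrophages at 60.7 CPM (56.5 to 65.0), with overlapping intervals. The same step, chosen after seeing the data, left Igf1 and Pdgfa of LD perivascular macrophages at 101 CPM (79.7 to 125) and 68.3 CPM (51.3 to 89.1), with intervals that reached those of the next class. In the control library perivascular macrophages led for 5 members, 2 of them clear of the next, and other macrophages for Gdf15, Osm and Vegfa, 2 of them clear. The clear lead of Vegfa, at 8.13 CPM, rested on 11 UMIs. Without the cells rich in retinal markers, control other macrophages were at 1.94 CPM of Vegfa from 2 UMIs, against 0.692 CPM in control microglia. Without the cell richest in it, Igf1 of control perivascular macrophages was at 35.9 CPM (19.1 to 61.4). Control other macrophages were then at 12.6 CPM (7.35 to 20.2), so the lead of Igf1 was no longer clear. Microglia led for 0 members in both libraries. Bmp2 had the steepest order in LD, at 395 CPM in perivascular macrophages, 19.9 CPM in other macrophages and 0.937 CPM in microglia. Pdgfa was the flattest, with intervals of microglia and other macrophages that overlapped in LD and of all neighbours in the control library.

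Some members were seen in the same cells more often than the product of their shares. In thinned LD other macrophages, Hbegf and Bmp2 were both seen in 20 cells, against a product of 6.03, and Hbegf and Gdf15 in 27 cells, against 10.9. Igf1 and Hbegf were both seen in 15 cells, against 19.1. In LD microglia Gdf15 and Osm were both seen in 33 cells, against 13.6, and Hbegf and Osm in 109 cells, against 84.9. In control microglia Hbegf and Osm were both seen in 27 cells, against 10.4. These counts are of cells of 1 library and carry no test. Over 39 groups of cells (library by class by state, at least 50 cells each), the genes most like Igf1 by Pearson's r of log2 CPM were Gpx3, which encodes a glutathione peroxidase (0.95), Cd200r4 (0.94) and Hpse, the heparanase gene (0.93). For Hbegf they were Cdkn1a, a cell cycle inhibitor gene (0.83), Tlr2 (0.82) and Usp16 (0.82), for Gdf15 Gas2l3 (0.76), Fth1 (0.75) and Plk2 (0.74), and for Osm Sqstm1, an autophagy receptor gene (0.93), Ubxn4 (0.92) and Dot1l (0.92). Bmp2 was most like Mrc1 (0.94) and F13a1 (0.92), which are markers of the class rule, and Ccnd2 (0.93). Pdgfa was most like Cpeb2 (0.82), Dusp16 (0.78) and Vmp1 (0.78), and Pdgfb most like Runx1 (0.87), B4galt1 (0.83) and Baiap2 (0.82). For Vegfa, at 20 CPM or more in 1 group, they were Map1b (0.75), Cep290 (0.73) and Got1 (0.72). The groups share libraries, depth and markers. With groups of at least 100 cells, 3 of these 24 genes were named again, Gpx3, Cd200r4 and Cdkn1a.

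Receptors, binding proteins and processing enzymes of the same pathways were mostly under 20 CPM or within 1.5-fold in microglia, where 5.45% of all 5213 measured genes were higher in LD and 6.77% lower. Of the 12 genes of the IGF axis 1 was measured at 20 CPM or more, the binding protein gene Igfbp4, at 43.2 CPM in LD and 33.4 CPM in control microglia. Of the 14 genes of the EGF family and its shedding 3 were measured and 0 passed 1.5-fold. Adam10, a protease that releases membrane-bound ligands, was at 101 CPM in LD and 79.8 CPM in control microglia, Adam17 at 62.6 and 57.2 CPM, and the EGF receptor ligand gene Tgfa at 17.8 and 23.1 CPM. Of the 7 PDGF pathway genes 2 were measured, and 1 was higher. Nrp1, a co-receptor for PDGF and VEGF, was at 125 CPM in LD and 47.9 CPM in control microglia, 2.60-fold higher (2.42 to 2.81), and Furin, a proprotein convertase gene, at 32.0 and 29.7 CPM.

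The BMP and TGF-beta list had 7 of 23 genes measured in microglia, with 0 higher and 1 lower. Smad7, an inhibitor of TGF-beta signalling, was at 74.4 CPM in LD and 182 CPM in control microglia, 2.45-fold lower. Tgfb1 was at 226 CPM in LD and 294 CPM in control microglia, and its receptor gene Tgfbr1 at 282 and 357 CPM. All 5 measured genes of 13 on the IL-6 family list were within 1.5-fold, with Il6st, which encodes gp130, at 90.0 CPM in LD and 109 CPM in control microglia, the feedback inhibitor gene Socs3 at 238 and 277 CPM, and Stat3 at 102 and 90.8 CPM. Both measured genes of 11 on the VEGF list were within that range, Hif1a at 82.5 CPM in LD and 72.1 CPM in control microglia and Vhl at 50.5 and 43.9 CPM. The GDF15 receptor genes Gfral and Ret were under 20 CPM in every class. Of 19 other growth and trophic factors 5 were measured and 1 was higher, Grn, which encodes progranulin, at 2547 CPM in LD and 1379 CPM in control microglia, 1.85-fold (1.82 to 1.87). Tnfsf13b was at 56.6 CPM in LD and 78.9 CPM in control microglia, and Tnfsf12 at 30.4 and 26.7 CPM.

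Outside microglia the same lists gave larger ratios on fewer cells. In perivascular macrophages 3 of 6 measured IL-6 family genes were higher in LD and 0 lower, where 21.0% of all genes were higher and 16.2% lower. Among them was Socs3 at 305 CPM in LD (246 UMIs) and 62.0 CPM in control cells (23 UMIs), and Smad7 was at 17.3 CPM in LD and 72.8 CPM in control cells. In other macrophages all 4 measured genes of the IGF axis were lower in LD, where 28.1% of all genes were lower and 22.9% higher. They were Igf1r, the receptor of IGF1, at 4.57 CPM in LD and 48.1 CPM in control cells, Irs2 at 17.0 and 51.8 CPM, Igfbp4 at 35.6 and 57.7 CPM and Igfbp7 at 0.914 and 50.3 CPM. They were named after their values were seen, and the control cells of this class also held the rod transcripts given above and 322 CPM of the 4 endothelial markers, against 41.6 CPM in LD cells. Without the cells rich in retinal markers Igf1r was at 3.39 CPM in LD (44 UMIs) and 10.7 CPM in control cells (11 UMIs), and Igfbp7 had 0 UMIs in LD and 6 UMIs in control cells, so that both were under 20 CPM. Irs2 was then at 16.9 and 62.1 CPM in LD and control cells, and Igfbp4 at 35.7 and 69.9 CPM.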

How the data were processed

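Per the labels' protocols, 1 pool of sorted retinal cells per group gave 1 library of 10x 3' ends. The authors deposited UMI counts per gene and barcode, not normalized, with Cell Ranger 2.0.0 and the mm10 build named in the submitters' processing notes. The sources used here give no other step. The 2 libraries shared 47 barcode sequences among 10824 barcodes.

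Barcodes needed 300 detected genes or more, and a mitochondrial share of UMIs no higher than 10%. Scrublet (scanpy 1.11.5) marked 1 LD cell and 0 control cells at its automatic threshold, so it did not work here. Cells that passed both class rules were left out, and removal of the 370 LD and 125 control cells with the highest scores was an alternative. Counts were summed per class and library and scaled to CPM. A ratio counted from 20 CPM in either library and past 1.5-fold, and a printed fold needs at least 1 count in each library. In the shares and medians over all genes, a count of 0 was set to 3 counts where the other library had more than 3. Shares were also computed with cells thinned to 3000 UMIs. Intervals came from scipy 1.17.1. The interval for ratios was checked on simulated data. Likeness used log2 of CPM plus 10, without mitochondrial and ribosomal protein genes, among genes with at least 20 CPM in 3 groups. All members were named, and of each pathway list the 3 measured genes with the largest ratio in microglia; the few other genes were chosen after their values were seen. Genes were placed with GENCODE M21. The members, classes and lists were chosen with earlier results of these data known.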

Additional observations from a re-analysis of the deposited data

Results flagged for a closer look

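The ratio of Hbegf went in opposite directions between the classes. It was 3.93 in microglia and 1.52 in perivascular macrophages, LD over control, and 0.308 in other macrophages. Bmp2 had a ratio of 1.40 in perivascular macrophages, 0.361 in microglia and 0.0756 in other macrophages. Its microglia ratio rests on 33 LD and 45 control UMIs, under 20 CPM in both libraries, and the part of released RNA in it was not tested. The difference between classes was not tested, since each class has 1 library per group.

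Igf1 was also higher in LD in the cells left out of the classes, those with a microglia marker sum between the limits. It was at 44.1 CPM in 857 LD cells (393 UMIs) and 8.14 CPM in 147 control cells (7 UMIs), a ratio of 5.43 (2.61 to 13.6).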

How the results depend on the processing

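No paired analysis was possible because each group has 1 library. Alternatives named as chosen after seeing the data are the Pf4, retinal marker, perivascular minimum of 5 and richest 1% settings. Over the alternatives, 98 of 110 member ratios in microglia stayed within the counting interval of the reported ratio and 12 moved outside it. In perivascular macrophages these numbers were 100 and 3 of 105, and 2 ratios that had been past 1.5-fold changed sign; in other macrophages they were 99 and 37 of 136. Ratios not past 1.5-fold, or under 20 CPM, changed sign 3 times in microglia (Gdf15 and Osm), 4 times in perivascular macrophages (Osm, Pdgfa and Pdgfb) and 8 times in other macrophages (Gdf15, Pdgfa and Vegfa). The 4 members lower in LD other macrophages became 1 with stricter classes and 2 with the mean of CPM per cell. Members lower in LD perivascular macrophages became 1 after thinning, and those higher became 1 with a minimum of 5 and 5 without the richest 1% of cells. With no minimum level, 2 members were higher and 2 lower in LD microglia. The matching shares of all genes were not computed for these settings, so the counts describe the members only. Of the ratios past 1.5-fold, the log2 value reversed for Hbegf in perivascular macrophages with stricter classes (-0.30) and for Gdf15 there with a minimum of 5 (-0.45). List medians reversed for PDGF in perivascular macrophages with stricter classes (-0.36), for other growth factors in other macrophages with stricter classes (-0.0227) and no minimum (-0.83), and for VEGF in other macrophages with macrophage genes of at least 20 per 10000 (0.0461). Groups of at least 100 cells named 3 of the 24 like genes again. The cause was not tested. Depth limits Vegfa, Igf1 in control microglia and Gdf15 in control perivascular macrophages, which rest on 12 or fewer control UMIs.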

Other observations

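Of the other members in the cells left between the class limits, Gdf15 was at 34.3 CPM in LD cells (305 UMIs) and 180 CPM in control cells (155 UMIs), 5.26-fold lower. Bmp2 was at 4.72 CPM in LD and 129 CPM in control cells, and Osm at 133 CPM in LD and 325 CPM in control cells. Pdgfa was at 50.9 CPM in LD and 63.9 CPM in control cells, with an interval that holds 1.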
